A study of Homo sapiens with 4 samples.

Results

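The C/EBP genes CEBPA, CEBPB, CEBPD, CEBPE and CEBPG, and TRIB1 and TRIB2, which encode pseudokinases that act on C/EBP proteins, were examined for ZNF217 occupancy in leukemia cells. These 7 genes were taken by name from 19970 protein-coding genes on chromosomes 1 to 22 and X, and every ZNF217 peak that overlapped the gene body or 100 kb on either side was assigned to the gene. This gave 77 of the 37635 MV4-11 peaks and 65 of the 22521 U937 peaks. ZNF217, a zinc finger transcription factor, had been mapped by CUT&Tag, in which a transposase tethered to an antibody cuts the DNA around the target, in untreated MV4-11 and U937 cells. Both are human leukemia lines of monocytic character, MV4-11 with a KMT2A fusion and U937 with a PICALM fusion, and each stands for 1 cell line rather than for a type of leukemia. Each line had 1 ZNF217 library, so differences between them could not be set against replicates and no test was possible. The peak lists hold positions alone, without height or read count. Depth is therefore unknown, and the IgG libraries were not used here. Positions are on hg38 as deposited and uncertain by 1 bp, and distances run from a peak's midpoint to the transcription start site (TSS) at the 5′ end of the gene.

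C/EBP proteins are basic leucine zipper factors that bind DNA as dimers. C/EBPα sets the granulocyte and monocyte fate of progenitors and is a frequent target of mutation in AML, C/EBPβ acts in macrophages and in granulocyte production under stress, C/EBPδ in the acute inflammatory response, and C/EBPε in late granulocyte maturation. C/EBPγ lacks an activation domain and serves as a dimer partner. TRIB1 and TRIB2 bring the ubiquitin ligase COP1 to C/EBPα, which is then degraded. A region about 42 kb downstream of CEBPA is known as its myeloid enhancer.

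The occupied sequences on which the results turn are given first. Those of the CEBPA downstream regions are 300 bases on the plus strand. For the +42 kb element (chr19:33260969-33261268) and the +34.3 kb region (chr19:33268063-33268362) the window was centred on the stretch covered by peaks of both lines, and for the +52.7 kb region (chr19:33249661-33249960) on the MV4-11 peak. Capitals mark matches on either strand to 6 strings of letters. These were TTGCNNAA for the C/EBP family, CAGAA for the core of the ZNF217 motif, TGTGGT for the RUNX family, AGGAAGT for ETS factors such as PU.1, AGATAA for the family of GATA factors, and TGACTCA for the dimeric factor AP-1. None of the printed matches overlapped another.
CEBPA +42 kb element: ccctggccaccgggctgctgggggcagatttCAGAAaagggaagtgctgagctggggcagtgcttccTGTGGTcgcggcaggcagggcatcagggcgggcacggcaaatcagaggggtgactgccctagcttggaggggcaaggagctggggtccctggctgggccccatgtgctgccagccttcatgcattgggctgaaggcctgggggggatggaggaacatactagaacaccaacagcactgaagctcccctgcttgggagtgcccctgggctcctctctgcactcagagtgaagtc
CEBPA +34.3 kb region: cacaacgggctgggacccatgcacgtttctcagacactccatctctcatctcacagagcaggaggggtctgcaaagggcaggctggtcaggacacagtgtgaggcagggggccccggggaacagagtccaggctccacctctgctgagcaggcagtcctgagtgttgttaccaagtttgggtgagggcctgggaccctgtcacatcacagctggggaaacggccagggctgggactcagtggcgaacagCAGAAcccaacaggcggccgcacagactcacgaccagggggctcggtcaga
CEBPA +52.7 kb region: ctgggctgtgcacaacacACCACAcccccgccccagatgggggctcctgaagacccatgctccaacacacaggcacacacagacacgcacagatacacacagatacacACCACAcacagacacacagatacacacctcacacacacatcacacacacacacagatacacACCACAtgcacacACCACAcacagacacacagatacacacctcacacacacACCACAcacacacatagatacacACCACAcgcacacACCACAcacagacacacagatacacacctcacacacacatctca

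The +42 kb element held 1 CAGAA and 1 RUNX match, and the +34.3 kb region held 1 match to the ZNF217 core. That core is common, being present in the central 300 bp of 55.0% of all MV4-11 and 51.5% of all U937 peaks, and TGTGGT was present in 22.1% and 18.1%. The +52.7 kb region held 7 RUNX matches, most of them within a long run of CA-rich repeats. Such density was rare, since 101 of 36356 MV4-11 peaks (0.278%) and 2 of 21737 U937 peaks had 7 or more. The U937 peak there covered 121 of these 300 bases.

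The promoters follow, read towards the gene from upstream of the start that RefSeq gives (GRCh38.p14) and ending before any annotated protein-coding exon. RefSeq promoters were matched for 5 of the 7 genes. They lay at chr19:33302535-33302784 (minus strand) for CEBPA, chr20:50190580-50190829 (plus) for CEBPB, chr14:23119256-23119505 (minus) for CEBPE, chr19:33373459-33373684 (plus) for CEBPG and chr2:12716686-12716909 (plus) for TRIB2. They are shown because CEBPB, CEBPE and CEBPG were occupied in both lines, and CEBPA and TRIB2 in 1 line each.
CEBPA promoter: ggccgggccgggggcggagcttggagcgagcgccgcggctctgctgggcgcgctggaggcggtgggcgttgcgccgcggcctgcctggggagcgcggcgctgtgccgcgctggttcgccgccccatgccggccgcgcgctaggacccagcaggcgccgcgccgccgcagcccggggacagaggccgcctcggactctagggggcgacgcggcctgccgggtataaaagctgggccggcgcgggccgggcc
CEBPB promoter: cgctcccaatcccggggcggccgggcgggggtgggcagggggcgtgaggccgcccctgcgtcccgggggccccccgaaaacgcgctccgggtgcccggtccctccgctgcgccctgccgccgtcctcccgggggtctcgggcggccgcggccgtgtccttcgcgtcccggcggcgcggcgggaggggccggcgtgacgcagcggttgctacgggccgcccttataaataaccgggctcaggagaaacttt
CEBPE promoter: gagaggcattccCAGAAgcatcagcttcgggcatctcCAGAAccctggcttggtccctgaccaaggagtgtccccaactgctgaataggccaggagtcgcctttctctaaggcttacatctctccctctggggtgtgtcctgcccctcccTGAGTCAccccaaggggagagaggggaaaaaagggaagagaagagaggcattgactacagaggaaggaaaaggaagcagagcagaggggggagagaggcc
CEBPG promoter: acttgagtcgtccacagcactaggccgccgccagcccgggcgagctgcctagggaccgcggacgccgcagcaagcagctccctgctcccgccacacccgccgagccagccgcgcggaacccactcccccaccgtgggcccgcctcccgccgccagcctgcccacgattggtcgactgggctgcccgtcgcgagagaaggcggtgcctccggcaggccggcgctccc
TRIB2 promoter: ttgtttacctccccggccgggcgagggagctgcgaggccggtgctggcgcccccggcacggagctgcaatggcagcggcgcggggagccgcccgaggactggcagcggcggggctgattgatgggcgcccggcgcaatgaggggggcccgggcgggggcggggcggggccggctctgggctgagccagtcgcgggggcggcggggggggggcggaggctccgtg

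GC content was 81.2% at CEBPA, 77.6% at CEBPB, 75.7% at CEBPG and 80.4% at TRIB2, against a median of 58.0% over 35116 RefSeq promoters (250 bases before the start). CEBPE, at 57.2%, was near that median and had 2 CpG dinucleotides, whereas CEBPA had 41. They are not placed alike, however. The CEBPE stretch lies before a RefSeq start inside the gene body (23117036 to 23120256), downstream of the TSS used for distances. The other stretches end directly before that TSS of their gene. None of the 6 letter strings occurred in the CEBPA, CEBPB, CEBPG or TRIB2 stretches. The CEBPE stretch held CAGAA at 2 places, a string found in 48.0% of promoters, and an AP-1 match, found in 4.20%. The MV4-11 peaks covered all bases of the CEBPA, CEBPB, CEBPE and CEBPG stretches and none of TRIB2. The U937 peaks covered all of CEBPB, CEBPG and TRIB2, 145 bases of CEBPE and none of CEBPA.

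ZNF217 peaks lay around 5 of the genes in both lines, around CEBPD in MV4-11 only and around TRIB2 in U937 only. In MV4-11 the windows held 32 peaks at CEBPA, 25 at CEBPG, 17 at CEBPB, 11 at TRIB1, 9 at CEBPE, 4 at CEBPD and 0 at TRIB2. In U937 they held 22 at CEBPB, 19 at CEBPA, 14 at CEBPG, 12 at TRIB1, 9 at CEBPE, 1 at TRIB2 and 0 at CEBPD. The median over the 7 genes was 11 in MV4-11 and 12 in U937, beside medians of 5 and 3 over all protein-coding genes, whose windows were longer (median 227 kb against 203 kb). CEBPA and CEBPG lie next to each other on chromosome 19, so 21 MV4-11 and 12 U937 peaks belonged to both windows. With no replicates, the order of neighbouring genes in these lists, such as TRIB1 and CEBPE, cannot be set against an error.

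Seen against all genes, CEBPA and CEBPB stood high in U937. A window with at least 19 peaks was found for 473 of 19970 genes (2.37%), and 1 with at least 22 for 189 genes (0.946%). In MV4-11, 860 genes (4.31%) had at least the 32 peaks of CEBPA and 3622 (18.1%) at least the 17 of CEBPB. More peaks in U937 than in MV4-11, as at CEBPB, TRIB1 and TRIB2, was the less common order, seen in 12.7% of all genes. The reverse order, as at CEBPA, CEBPD and CEBPG, was seen in 64.4%. When each list was limited to its 21737 widest peaks, the order at CEBPA turned, with 17 MV4-11 and 19 U937 peaks. For peaks of at least 400 bp both lines had 19 there. CEBPG had 14 peaks in each line with the widest peaks, and 15 in MV4-11 and 13 in U937 with peaks of at least 400 bp.

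**Figure D1:**
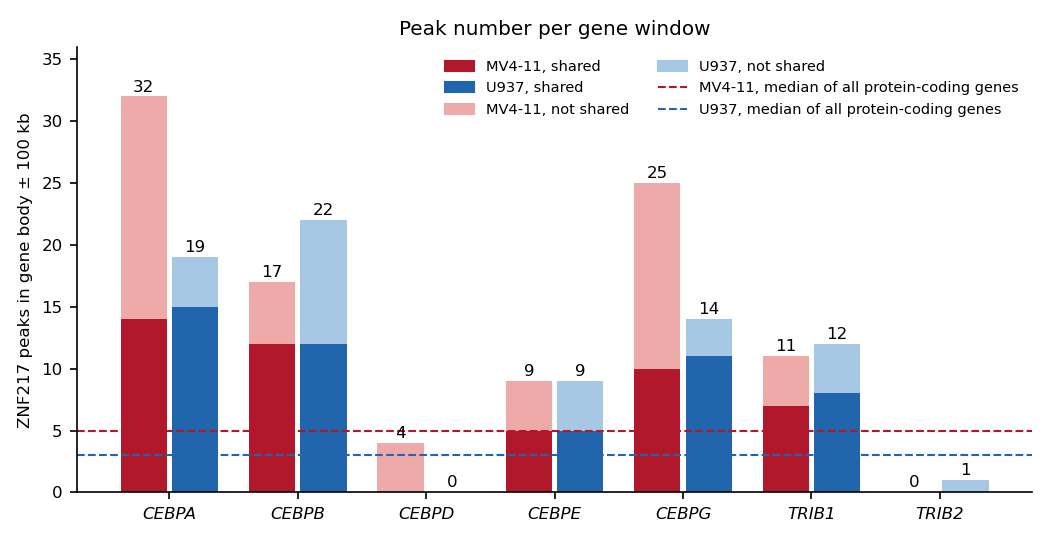
Bars give the number of ZNF217 peaks (vertical axis) in the gene body and 100 kb on each side of the 7 genes (horizontal axis), red for MV4-11 and blue for U937, with the total above each bar. The dark part counts peaks shared with the other line, and dashed lines are the medians of all protein-coding genes (5 and 3), below which only CEBPD and TRIB2 fell in both lines.

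The lines shared part of these peaks. At least 1 shared peak lay in the window of 5 of the 7 genes, the others being CEBPD and TRIB2, beside 79.0% of all protein-coding genes. By an overlap of at least 1 bp, 38 of the 77 MV4-11 peaks were shared, or 49.4% (95% Wilson interval 38.5 to 60.3, counting error alone), and 40 of the 65 U937 peaks, or 61.5% (49.4 to 72.4). Over all peaks the shares were 40.4% and 68.6%. Joined where they overlapped, the peaks made 101 regions, of which 37 were occupied in both lines, 39 in MV4-11 alone and 25 in U937 alone. Shared peaks were the wider ones, with a median of 1050 bp against 427 bp for unshared peaks in MV4-11, and 982 bp against 591 bp in U937. The same held over the whole lists (978 against 487 bp, and 823 against 462 bp). A wider peak meets the 1 bp rule more easily, so this order is partly set by the definition of sharing. Median width in the 7 windows was 657 bp for MV4-11 peaks and 717 bp for U937 peaks, beside 622 and 689 bp over all peaks, but very wide peaks were more common. At least 2 kb was reached by 11 peaks in each line, 14.3% in MV4-11 and 16.9% in U937, beside 5.31% and 4.09% of all peaks. The 2 kb limit was chosen after values were seen. At least 1 kb was reached by 35.1% of the MV4-11 and 35.4% of the U937 peaks, beside 25.6% and 27.6% of all peaks.

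Promoters, taken as 1 kb on each side of any TSS, were occupied at 6 of the 7 genes in MV4-11 and at 5 in U937. The background was 59.0% of all protein-coding genes in MV4-11 and 50.5% in U937. CEBPB, CEBPE, CEBPG and TRIB1 were occupied in both lines (background 47.4%), CEBPA and CEBPD in MV4-11 only (11.6%), and TRIB2 in U937 only (3.1%). The promoter peaks were wide. The widest reached 2 kb at CEBPB, CEBPE, CEBPG and TRIB1 in MV4-11, against 14.7% of all genes with a promoter peak (8.66% of all genes), and at CEBPB, CEBPG and TRIB2 in U937, against 7.62% (3.85%). These states were the same with a promoter of 500 bp and with 1 TSS per gene. A promoter of 3 kb on each side added CEBPA in U937.

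CEBPA, a gene of 2601 bp on the minus strand of chromosome 19 (33299934 to 33302534), was occupied at its promoter in MV4-11 only and along its downstream flank in both lines. In MV4-11 a peak of 1049 bp (33302137 to 33303186) covered the TSS, and another of 1674 bp (33300120 to 33301794) lay within the gene, and together they covered 79.6% of the gene body. Further MV4-11 peaks lay 1.2 and 2.5 kb upstream (325 and 1119 bp), over the divergent noncoding genes CEBPA-DT and ENSG00000267130. U937 had no peak in the gene body, at the TSS or in the 60 kb upstream of it. Its nearest peak ended 2960 bp downstream of the TSS, just beyond the 3′ end of the gene.

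Downstream of CEBPA the lines had regions in common, but such regions were not counted over all genes. Within 60 kb of the TSS on that side there were 17 regions, of which 9 were occupied in both lines, 5 in MV4-11 alone and 3 in U937 alone. Upstream within 60 kb there were 6 regions, all of them in MV4-11 alone. The 9 shared regions had midpoints 4.0, 8.9, 21.3, 24.1, 27.8, 34.3, 41.7, 48.1 and 52.7 kb from the TSS, and all were intergenic. From 3 to 54 kb downstream, a stretch chosen after values were seen, MV4-11 had 13 peaks that covered 21.5 kb and U937 had 14 that covered 16.1 kb. Of these, 10 in MV4-11 and 11 in U937 were shared, beside 40.4% and 68.6% of all peaks. A U937 peak was the wider in 2 of the 9 regions (24.1 and 48.1 kb) and an MV4-11 peak in the other 7.

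The widest regions of this flank were those at 27.8, 34.3 and 41.7 kb. At 27.8 kb the MV4-11 peak spanned 3533 bp and the U937 peak 1746 bp. At 34.3 kb they spanned 3260 bp (33266589 to 33269849) and 2906 bp (33266759 to 33269665), and the MV4-11 peak contained the whole U937 peak. At the +42 kb element they spanned 2749 bp (33259508 to 33262257) and 2124 bp (33260056 to 33262180), again with the U937 peak wholly inside, and their midpoints lay 41.7 and 41.4 kb from the TSS. U937 had further peaks of 533 and 439 bp at 39.0 and 37.7 kb that MV4-11 lacked. A shared peak with its midpoint 37 to 47 kb downstream of the TSS was found for 11.1% of all protein-coding genes. The shared peaks at 41.7 and 34.3 kb are those whose sequences are printed above, and the U937 midpoint window at the +42 kb element, like the one printed, held 1 RUNX match, while the MV4-11 midpoint window held 3.

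**Figure D2:**
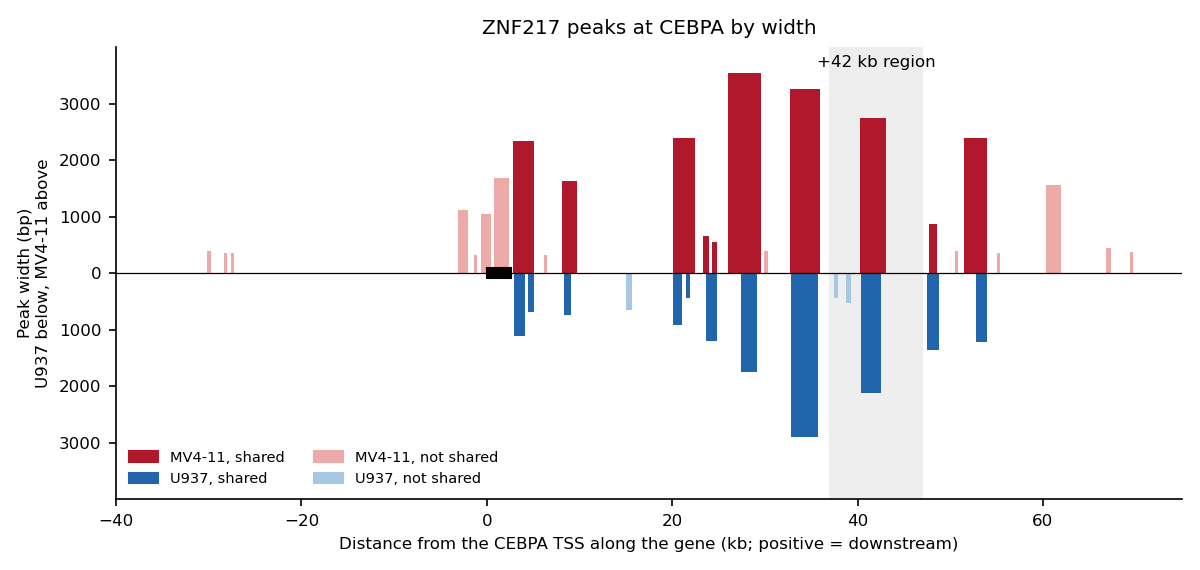
The horizontal axis gives the distance from the CEBPA TSS along the gene (kb, downstream positive) and bar height gives peak width (bp), MV4-11 upwards in red and U937 downwards in blue, dark where the other line overlaps. Narrow bars are drawn at a minimum of 0.25 kb, the black box is the gene and the grey band runs from 37 to 47 kb. Wide dark bars stand opposite each other from 4.0 to 52.7 kb, and pale MV4-11 bars over the gene have no U937 counterpart.

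CEBPG lies upstream of CEBPA on the plus strand (33373685 to 33382686), and its MV4-11 promoter peak was 70.9 kb from the CEBPA TSS. The promoter peaks of the lines nearly coincided. In MV4-11 the peak ran from 33372186 to 33374598 (2412 bp), and in U937 from 33372181 to 33374660 (2479 bp), with 2412 bp in common and ends 62 bp apart. Each covered all 3 annotated TSSs of the gene. Downstream the next shared regions lay 17.3, 18.8 and 20.9 kb from the CEBPG TSS, in PEPD, which encodes the peptidase prolidase. The last of them met an annotated start inside PEPD, with both peak midpoints in an intron. Beyond 22 kb the lines had no region in common up to the window's edge, with 6 MV4-11 peaks of 288 to 745 bp and 2 U937 peaks of 723 and 385 bp.

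CEBPB, a gene of 1839 bp on the plus strand of chromosome 20 (50190830 to 50192668), was occupied at its promoter over 2358 bp in MV4-11 (50190036 to 50192394) and over 3066 bp in U937 (50188789 to 50191855). The MV4-11 peak reached further into the gene and covered 85.0% of its body, and the U937 peak reached further upstream, over CEBPB-AS1, and covered 55.7%. Of the regions for which CEBPB was the nearest of the 7 genes, 12 were occupied in both lines, and U937 had the wider peak in 9 of them.

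The far downstream flank of CEBPB, mostly within the noncoding gene PELATON, was occupied more widely in U937. From 54 to 95 kb downstream of the TSS, U937 had 8 peaks that covered 14.7 kb, 4 of them of at least 2 kb. MV4-11 had 4 peaks that covered 2.34 kb, the widest of 1141 bp. The largest U937 peak of all 7 windows, 4255 bp from 50273086 to 50277341, lay 84.4 kb downstream and contained the 1141 bp MV4-11 peak (50274131 to 50275272). A 3168 bp U937 peak 80.2 kb downstream and a 2007 bp one at 69.6 kb had no MV4-11 counterpart. Upstream of CEBPB, from 2 to 90 kb, each line had 9 peaks, 6 of them shared, that covered 5.0 kb in MV4-11 and 6.02 kb in U937. All U937 peaks of at least 2 kb at this locus other than the promoter peak thus lay downstream.

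CEBPD, a gene of 1252 bp on the minus strand of chromosome 8 (47736913 to 47738164), was occupied in MV4-11 and empty in U937. The MV4-11 promoter peak spanned 1828 bp (47737183 to 47739011) and covered 78.4% of the gene. The other 3 MV4-11 peaks lay 2.1 kb downstream (318 bp), 3.4 kb downstream (1330 bp) and 25.7 kb upstream (1000 bp). The nearest U937 peak was 199.8 kb from the TSS and 455 bp wide. A window occupied in MV4-11 and without any U937 peak was found for 5.35% of all protein-coding genes.

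CEBPE (chromosome 14, 23117036 to 23120256, minus strand) had 9 peaks in each line, 5 of them shared. The MV4-11 promoter peak of 2234 bp (23119234 to 23121468) covered all 3 annotated TSSs, and the U937 peak of 974 bp (23119361 to 23120335) lay wholly inside it and covered 2 of them. The MV4-11 peak reached further upstream of the gene. Each of the other shared regions overlapped the promoter of a neighbouring gene, namely ACIN1 with C14orf119, ACIN1 at an internal start, CDH24 and the proteasome subunit gene PSMB5. In U937 alone there were 2 narrow peaks just past the 3′ end of CEBPE, 4.9 kb (370 bp) and 7.3 kb (339 bp) from its TSS, with 1 and 2 C/EBP matches. A further peak of 861 bp lay 41.2 kb upstream in SLC7A8, and 1 of 567 bp in PSMB5.

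TRIB1 (chromosome 8, 125430358 to 125438403, plus strand) was occupied in both lines, more broadly in MV4-11. A single MV4-11 peak of 3942 bp (125429057 to 125432999), the widest MV4-11 peak of the 7 windows, covered 3 of the 4 annotated TSSs. U937 had 2 peaks in its place, of 1241 bp (125429354 to 125430595) and 1495 bp (125431479 to 125432974), with the gap between them inside the gene, and these covered 3 TSSs as well. A second MV4-11 peak of 2427 bp lay 5.3 kb downstream of the first TSS, where U937 had 350 bp. In all, peaks covered 63.0% of the gene body in MV4-11 and 25.9% in U937. Away from the gene, shared regions lay 19.4, 44.1 and 67.7 kb upstream, and 75.6 and 82.4 kb downstream in a noncoding gene, ENSG00000253111. The region 67.7 kb upstream met an annotated start of NSMCE2, with both peak midpoints in an intron of that gene. At 82.4 kb both peaks ended at the same base, 125513764, and the MV4-11 peak was 1980 bp wide, the U937 peak 989 bp.

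TRIB2 (chromosome 2, 12716910 to 12742734, plus strand) showed the reverse of CEBPD. U937 had a single peak in the whole window, of 2408 bp (12716158 to 12718566), which covered all 4 annotated TSSs, and MV4-11 had none. The nearest MV4-11 peak was 413 kb from the TSS and 467 bp wide. A window with a U937 peak and without any MV4-11 peak was found for 2.89% of all protein-coding genes, and one with no MV4-11 peak at all for 12.5%. As a pair, the tribbles genes thus differed, TRIB1 having peaks at its promoter in both lines and TRIB2 in U937 alone.

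**Figure D3:**
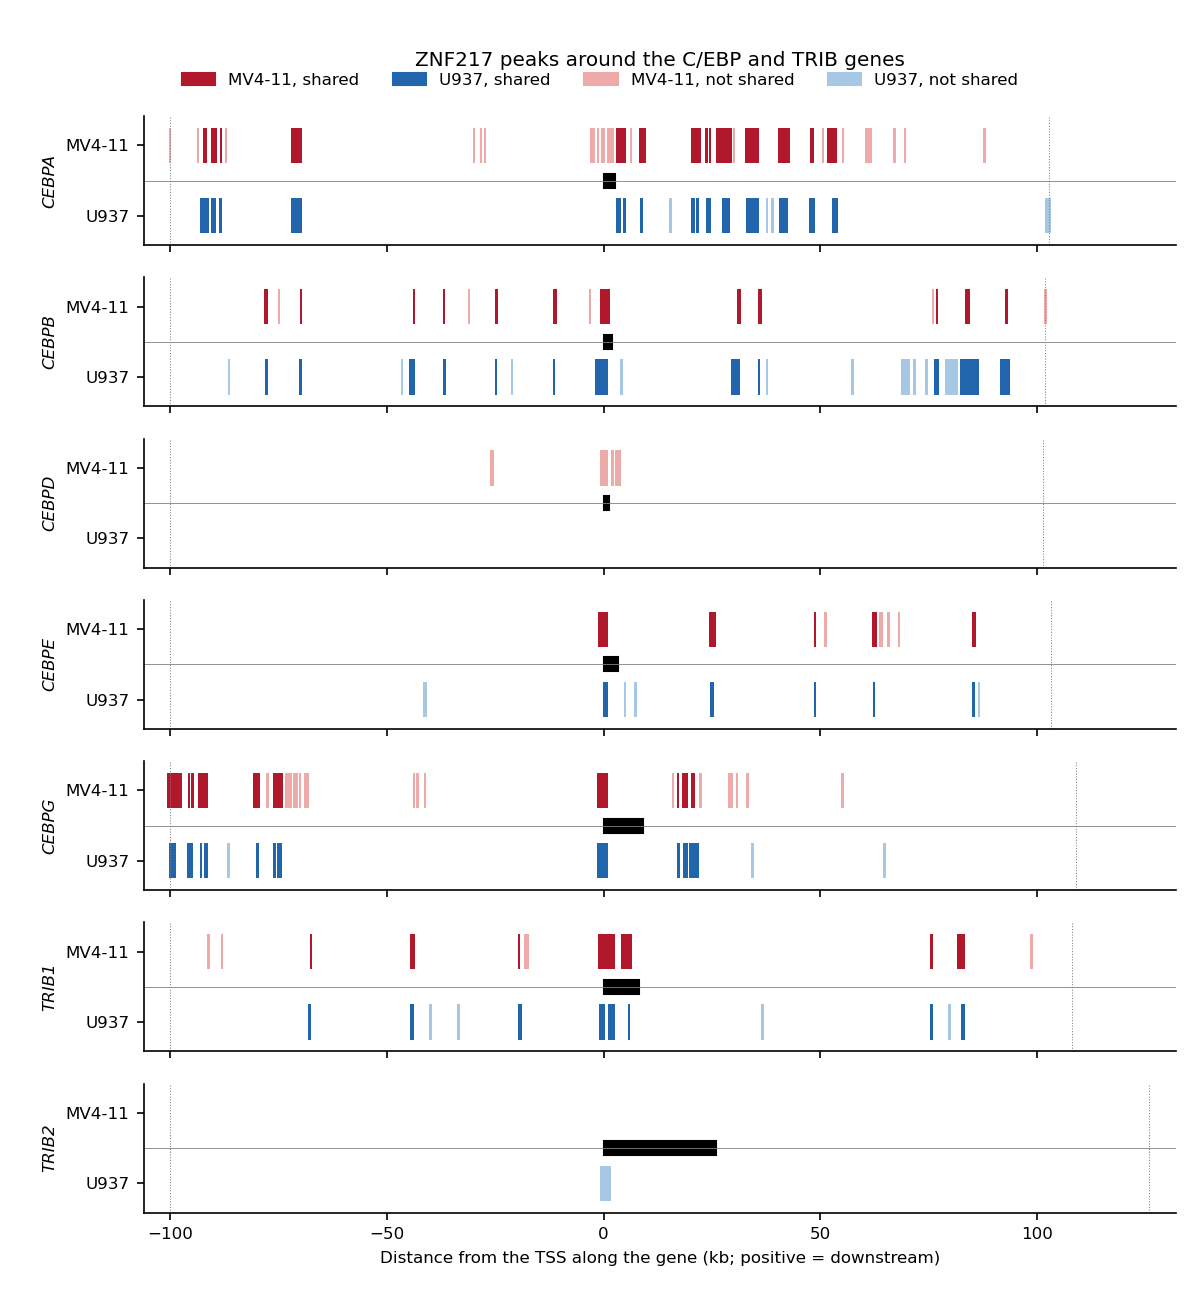
Each panel is the window of 1 gene, with the distance from its TSS along the gene on the horizontal axis (kb, downstream positive), MV4-11 peaks above in red and U937 peaks below in blue, dark where shared. The black box is the gene body, dotted lines are the window's edges, and peaks under 0.5 kb are drawn at that width. Blocks of dark marks lie downstream of CEBPA, the U937 row of CEBPD and the MV4-11 row of TRIB2 are empty, and wide U937 marks stand 54 to 95 kb downstream of CEBPB.

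Among the 37 regions occupied in both lines, the widest MV4-11 peak exceeded the widest U937 peak in 20 and fell short of it in 17, with medians of 1119 and 989 bp. Counts by gene are small and rest on 1 library per line. No background stands beside them, as the order over all regions of the 2 lists was not obtained. Over all shared peaks the median width was 978 bp in MV4-11 and 823 bp in U937. MV4-11 was the wider at 7 of 9 regions nearest to CEBPA, 5 of 7 nearest to TRIB1 and 4 of 5 nearest to CEBPE. U937 was the wider at 9 of 12 nearest to CEBPB and 3 of 4 nearest to CEBPG. Some of these orders rest on small differences. MV4-11 and U937 had 2412 and 2479 bp at the CEBPG promoter, and 456 and 443 bp 67.7 kb upstream of TRIB1. A wide peak can be split by the peak caller, so widths and counts move against each other where 1 line has 2 peaks in place of 1.

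**Figure D4:**
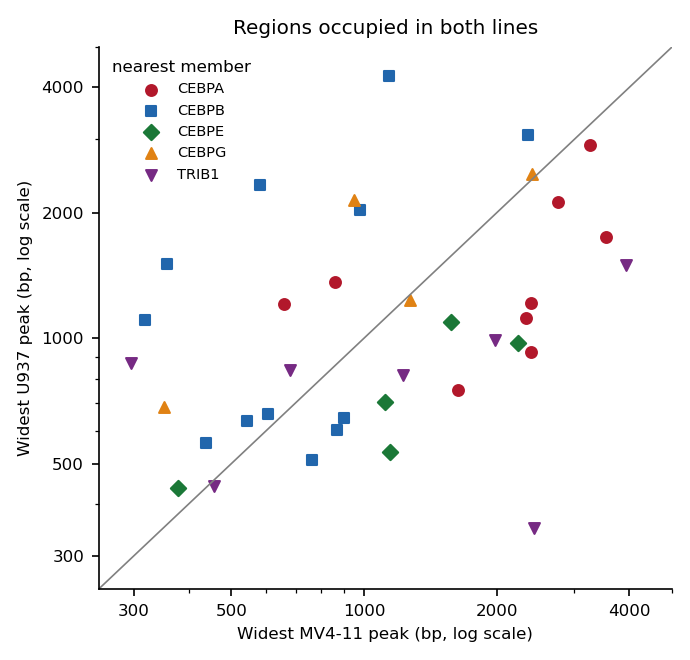
Each point is a region occupied in both lines, placed by its widest MV4-11 peak (horizontal, bp, log scale) and its widest U937 peak (vertical, bp, log scale), with marker and colour by the nearest of the 7 genes. The diagonal marks equal width, with 20 points below it, among them 7 of the 9 of CEBPA, and 17 above it, among them 9 of the 12 of CEBPB.

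By position, promoter peaks were the widest class, with medians of 2296 bp in MV4-11 (8 peaks) and 1952 bp in U937 (6 peaks). Peaks 10 to 50 kb away, 33 and 31 in number, had medians of 607 and 717 bp, and 20 in each line were shared. Peaks over 50 kb away, 28 and 21, had medians of 569 and 703 bp, and 11 in each line were shared. Most peaks lay outside coding genes, with 33 MV4-11 and 29 U937 midpoints intergenic and 12 and 15 in noncoding genes. The promoter of a neighbouring gene, at any annotated TSS and so also at starts inside a gene, was touched by 13 MV4-11 and 9 U937 peaks. Distance classes and features were not counted over all peaks, so no background stands beside these counts.

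The 6 letter strings were counted in these peaks and in the whole lists. In MV4-11 a C/EBP match lay in the central 300 bp of 8 of 77 peaks (10.4%, interval 5.36 to 19.2), beside 10.6% of all peaks. In U937 it lay in 11 of 65 (16.9%, 9.72 to 27.8), beside 9.40%. AP-1 matches lay in 3 MV4-11 peaks (3.90%, 1.33 to 10.8, beside 6.88%) and in 10 U937 peaks (15.4%, 8.58 to 26.1, beside 8.02%). GATA matches lay in 8 MV4-11 peaks (10.4%, 5.36 to 19.2, beside 6.63%) and in 7 U937 peaks (10.8%, 5.32 to 20.6, beside 5.72%). The U937 intervals for C/EBP and AP-1 just left out the value of the whole list and the others given here held it. However, 6 strings were compared in each line, intervals cover counting error alone, and neighbouring peaks share their sequence context. The core of the ZNF217 motif was in 55.8% of the MV4-11 and 47.7% of the U937 peaks, beside 55.0% and 51.5%. RUNX matches were in 26.0% and 16.9%, beside 22.1% and 18.1%, and ETS matches in 13.0% and 12.3%, beside 10.8% and 9.71%. Median GC content was 58.0% in both lines, beside 57.7% and 58.7%. The C/EBP matches included the shared CEBPA regions 8.9 and 48.1 kb downstream, in both lines, and the wide U937 peak 84.4 kb downstream of CEBPB, which held 2.

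Other genes of the pathway were counted in 3 lists, for which the shares of all protein-coding genes were 59.0% with a promoter peak in MV4-11, 50.5% in U937, 47.4% in both, 11.6% in MV4-11 only, 3.1% in U937 only and 37.9% in neither. Of 7 genes that act on C/EBP proteins or carry the name, all had promoter peaks in both lines, among them the third tribbles gene TRIB3 (883 bp in MV4-11, 783 bp in U937), the ligase gene COP1 (549 and 1254 bp), and DDIT3, which encodes the inhibitory family member CHOP (1885 and 3467 bp). Of 8 factors known from control elements of CEBPA, 6 were occupied in MV4-11 and 7 in U937. RUNX1, SPI1, MYB, LMO2 and FLI1 were occupied in both lines, TAL1 in MV4-11 alone (439 bp), and GATA2 (486 bp) and ERG (589 bp) in U937 alone. Of 12 myeloid target genes of C/EBP factors, 8 were occupied in MV4-11, near the share of all genes, and 4 in U937, below it. The granule protein genes ELANE, MPO, PRTN3 and CTSG were occupied in MV4-11 alone, and ELANE, PRTN3 and AZU1 lie side by side. CSF1R, IL6R, AZU1 and CAMP were occupied in both, and CSF3R, LTF, LCN2 and MMP8 in neither. Median window counts were 7 and 5 peaks for the first list, 8 and 5 for the second and 13 and 8 for the third, beside 5 and 3 over all genes.

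By the sum of absolute differences of log2(count + 1) over peaks and shared peaks in the 2 lines, the gene most like CEBPA among these lists and the 7 genes was RUNX1, with 34 and 22 peaks (distance 0.58). The gene most like TRIB1 was CSF3R, the receptor gene for granulocyte colony-stimulating factor, with 10 and 12 peaks (0.30). CEBPB and CEBPG were both nearest to TRIB3 (0.98 and 0.95), CEBPE to LMO2 (0.78) and CEBPD to CTSG, with 7 MV4-11 peaks and 0 in U937 (0.68). TRIB2 had no close neighbour, its nearest being MMP8 at 2.0. Counts were not scaled to window length, which differs between genes, so these distances compare peak number and not density.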

How the data were processed

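CUT&Tag libraries for ZNF217 and IgG were labelled for MV4-11 and U937, 4 samples in all with 1 per group, and groups were taken from the titles. The authors deposited intervals (unit: other), with a chromosome, a start and an end in bp for each peak and no signal. Per the submitters' processing notes and the study's methods, the authors aligned reads to hg38 with Bowtie2 2.4.4 and called peaks per library with MACS3 3.0 at q 0.01. Whether IgG served as control, whether duplicates were removed and how starts are counted were not given in the sources used here.

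Peaks were set against GENCODE 44 on GRCh38 with pysam 0.24.0, samtools 1.23.1, SciPy 1.17.1, pandas 2.3.3 and NumPy 2.4.6 under Python 3.11.15, and drawn with Matplotlib 3.10.9. Counts in gene windows, sharing by 1 bp, promoter states (1 kb) and letter matches in the central 300 bp were obtained for the 7 genes and for all protein-coding genes or all peaks of chromosomes 1 to 22 and X. The procedure was checked on simulated peaks. Shares have 95% Wilson intervals, and no p-value was obtained, each line having 1 library. Features were assigned by a peak's midpoint, and regions to the nearest member. Letter strings were searched on both strands.

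The named genes were the 7 members, the 3 pathway lists (with members named by promoter state), neighbours with a promoter peak inside a window, and for each member the genes of nearest count pattern. The +52.7 kb sequence, the stretches of 3 to 54 kb and 54 to 95 kb and the width of 2 kb were chosen after values were seen. The members and lists were chosen with earlier results of these data known. The 12 alternatives changed the flank (50 or 200 kb, or midpoints), the peaks (at least 400 bp, widest 21737, merged under 500 bp), the overlap (reciprocal 50%, within 500 bp), the promoter (500 bp, 3 kb, 1 TSS) and the limits of the +42 kb region (40 to 44 kb).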

Additional observations from a re-analysis of the deposited data

How the results depend on the processing

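Over 12 alternatives, 51 of 60 recomputed totals stayed within 1.5 times the reported value, and 9 did not. Among the values for single genes, 163 stayed within that factor, 45 moved beyond it and 2 turned the order of the lines. The 17 MV4-11 peaks of CEBPB, for example, fell to 9 with a flank of 50 kb. The median number of peaks per window was 5 in MV4-11 and 6 in U937 with a flank of 50 kb, and 21 in MV4-11 with 200 kb, where the 7 windows held 121 MV4-11 peaks. These follow from the window's length. With the 21737 widest peaks of each line, MV4-11 had 46 peaks in the windows and a median of 7, while U937 kept its 65 and 12. The order of the lines then turned at CEBPA, with a difference of -2 (MV4-11 minus U937), the difference at CEBPG fell from 11 to 0, and with a flank of 200 kb it turned at TRIB1, with a difference of 2. With a reciprocal overlap of 50%, 17 peaks were shared in each line in place of 38 and 40. Between 40 and 44 kb downstream of CEBPA, U937 had 1 peak in place of 3, and MV4-11 had 1 in both cases. Promoters were occupied at 6 genes in MV4-11 under the 6 settings that bear on it, and at 5 in U937 except with 3 kb, which gave 6. No paired analysis was possible because each group had 1 library. Depth, which the lists do not give, limits any reading of an empty window or of a difference in peak number.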

Other observations

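Neighbouring genes are given here where a peak of the windows overlapped their promoter, so that their occupancy is set by the choice. Promoters were taken at any annotated TSS, also inside a gene. In the CEBPB window the promoters of UBE2V1, a ubiquitin-conjugating enzyme variant, and PEDS1 lay under 901 and 607 bp in MV4-11, and under 645 and 657 bp in U937. In the CEBPE window the start shared by ACIN1 and C14orf119 lay under peaks of 1573 and 1092 bp. An annotated NSMCE2 start upstream of TRIB1 met peaks of 456 and 443 bp, with midpoints in an NSMCE2 intron. An annotated start inside PEPD, beside CEBPG, met peaks of 947 and 2151 bp, with midpoints in a PEPD intron.

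At least 3 RUNX matches within 300 bp were found in 361 of 36356 MV4-11 peaks (0.993%) and in 56 of 21737 U937 peaks (0.258%). Among the peaks of the 7 windows, 4 in MV4-11 and 0 in U937 had 3 or more, and 2 in MV4-11 had 7 or more. These were the CEBPA +52.7 kb peak and the peak 25.7 kb upstream of CEBPD, which held 15. Most matches of the first lay in CA-rich repeats, and the second was not examined for repeats.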
